A study of Mus musculus with 11 samples.

Results

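Nos2 and 5 further genes that make, move or consume arginine were followed in mouse marrow cells carrying mutant CSF3R, with or without mutant CEBPA. The 3 groups held mutant CSF3R alone, mutant CSF3R before mutant CEBPA, and mutant CEBPA before mutant CSF3R. The 6 genes, Nos2, Ass1, Asl, Slc7a1, Slc7a2 and Odc1, were taken by their mouse symbols from the 51912 genes of the count table. All 6 were among the 15703 genes that passed the filter on low counts and were tested. Nos2 had already been picked out by the study in these samples as a gene of differentiation, so its direction is not independent evidence.

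RNA was sequenced from 11 samples of lineage-negative marrow of C57BL/6 mice. Marrow donors for retroviral transduction were in general 6 to 12 weeks old, and an age for these samples alone is not stated. The donor marrow carried a tamoxifen-inducible Cre recombinase, and each cell pool received a constitutive retroviral vector marked by GFP and a vector, marked by red fluorescence, whose oncogene is expressed after Cre recombination. CSF3R-only cells (n = 4) held human CSF3R T618I, an activating mutation of the G-CSF receptor, in the constitutive vector and nothing in the inducible one. CSF3R-first cells (n = 3) held the same CSF3R T618I and an inducible CEBPA V314VW, a C-terminal mutation of a transcription factor of granulocyte formation. CEBPA-first cells (n = 4) held constitutive CEBPA V314VW and inducible CSF3R T618I. They differ from CSF3R-only cells in the presence of mutant CEBPA and also in the vector and timing of CSF3R. From CSF3R-first cells they differ in the order, the vector and the time of expression of both oncogenes. The parts of these differences cannot be told apart. Transduction took place with IL-3, IL-6 and SCF, and lineage-negative cells positive for both colours were then sorted and kept for 48 h in medium free of cytokines with 4-hydroxytamoxifen, so all 3 groups, the CSF3R-only control included, received the Cre activator. Both oncogenes are retroviral human transgenes in pooled cells, and 48 h after the sort the pools also expressed genes of maturing neutrophils and monocytes. Levels are given as CPM, the reads of a gene relative to the library total, which was scaled by TMM (the trimmed mean of M-values). The labels do not say whether replicates A to D came from separate animals or cultures, so p-values measure only the spread between these samples, which may be technical.

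Nitric oxide synthase turns arginine into nitric oxide and citrulline, and the inducible form, Nos2, is a known product of activated macrophages and neutrophils. Arginine also leads to ornithine, from which ornithine decarboxylase, Odc1, makes the first polyamine. Citrulline is rebuilt into arginine by Ass1 and then Asl, and cells take up arginine through the cationic amino acid transporters encoded by Slc7a1 and Slc7a2.

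Total counts per sample ran from 47905747 to 72268346. The pools differed in maturation genes: the summed level of 12 neutrophil maturation genes was 26912 to 33227 CPM in CSF3R-only cells, 14685 to 25631 CPM in CSF3R-first cells and 6505 to 8649 CPM in CEBPA-first cells. The summed level of 12 monocyte and macrophage genes was 17739 to 24750, 13222 to 23344 and 6831 to 10817 CPM in the same order. Lyz2 and Chil3, which moved in opposite directions, held most of the latter sum; without them the other 10 genes summed to 2723 to 3439, 1412 to 2462 and 659 to 984 CPM. Of the T and NK cell markers, Cd3e, Cd8a and Ncr1 had no count in any sample, and the B cell and the T and NK cell lists each summed to less than 1 CPM in every sample. The part of these cell types in the results below was not tested, and in bulk samples fewer cells of a type and less RNA per cell cannot be told apart.

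Promoter windows of the RefSeq set (GRCm38.p6, 250 bases before to 50 after a start) matched 3 of the 6 genes: Ass1, Slc7a1 and Odc1. They are shown because Slc7a1 and Odc1 were higher, and Ass1 slightly lower, where CEBPA was mutated first. Capitals mark matches, on either strand, to TTNNGNAA (C/EBP), TTCNNNGAA (STAT), CACGTG (E-box) and an NF-kB pattern of GGG and CC with 5 bases between them; the last can match both strands 1 base apart, and such matches run together. The Ass1 window lies at chr2:31470020-31470319 on the + strand, the Slc7a1 windows at chr5:148399855-148400154 and, for an internal start, chr5:148392766-148393065 on the − strand, and the Odc1 window at chr12:17544623-17544922 on the + strand.
Ass1: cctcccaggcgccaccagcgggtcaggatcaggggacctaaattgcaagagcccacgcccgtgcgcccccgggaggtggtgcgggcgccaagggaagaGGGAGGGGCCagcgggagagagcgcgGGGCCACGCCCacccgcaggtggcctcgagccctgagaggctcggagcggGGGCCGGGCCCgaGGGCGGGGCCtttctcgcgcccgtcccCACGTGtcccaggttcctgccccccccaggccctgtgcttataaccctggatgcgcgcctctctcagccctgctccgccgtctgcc
Slc7a1, outer start: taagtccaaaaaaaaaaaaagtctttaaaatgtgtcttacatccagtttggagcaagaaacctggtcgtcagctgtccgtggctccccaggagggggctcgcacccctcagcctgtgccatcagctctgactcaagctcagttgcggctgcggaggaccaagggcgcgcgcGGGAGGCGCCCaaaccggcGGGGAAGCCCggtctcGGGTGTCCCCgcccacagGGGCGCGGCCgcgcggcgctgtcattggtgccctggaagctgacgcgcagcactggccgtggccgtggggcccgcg
Slc7a1, internal start: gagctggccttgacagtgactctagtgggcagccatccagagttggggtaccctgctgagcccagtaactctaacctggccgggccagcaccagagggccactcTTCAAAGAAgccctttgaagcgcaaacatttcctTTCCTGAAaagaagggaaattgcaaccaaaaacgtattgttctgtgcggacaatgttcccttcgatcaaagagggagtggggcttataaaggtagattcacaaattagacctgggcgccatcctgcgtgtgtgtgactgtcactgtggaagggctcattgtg
Odc1: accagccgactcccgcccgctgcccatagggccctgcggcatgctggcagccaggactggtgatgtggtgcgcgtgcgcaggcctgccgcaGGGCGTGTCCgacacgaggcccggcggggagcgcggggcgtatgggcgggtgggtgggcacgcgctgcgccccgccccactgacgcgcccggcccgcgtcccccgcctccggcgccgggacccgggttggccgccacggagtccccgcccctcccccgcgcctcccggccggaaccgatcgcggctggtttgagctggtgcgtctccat

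The NF-kB pattern occurred in 3 of the 4 windows, all but the internal Slc7a1 window, and in 50.8% of all 32851 windows of this length. CACGTG, the E-box bound by Myc and Max among others, was found in the Ass1 window at position -36 from the start and in 7.15% of all windows. TTNNGNAA, at -112, and TTCNNNGAA, at -146, occurred only in the internal Slc7a1 window among these 4, and in 40.7% and 8.3% of all windows. A match is a description of letters and says nothing of binding in these cells.

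The first comparison asked how the 6 genes differ when CEBPA is mutated before CSF3R, against CSF3R alone. A gene was called changed at a Benjamini-Hochberg adjusted p below 0.05 in edgeR's quasi-likelihood test and a log2 fold change beyond 1. In CEBPA-first against CSF3R-only cells 3 of 6 genes were changed, where the background over all tested genes was 27%. Nos2 fell (background lower, 19%), and Slc7a1 and Odc1 rose (background higher, 8.07%). The samples of the 2 groups did not overlap for 5 of 6 genes, all but Slc7a2, against 68.7% of all tested genes.

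In CSF3R-first against CSF3R-only cells Nos2 alone of the 6 was changed, and lower (background 6.65%, of which 4.53% lower and 2.13% higher), and the groups did not overlap for 3 of 6 genes (42.1% of all genes). In CEBPA-first against CSF3R-first cells 2 of 6 were changed, Nos2 and Slc7a2, both lower (background 12.8%, with 10.3% lower and 2.57% higher), and 4 of 6 did not overlap (52.2%). By adjusted p alone, without the fold limit, the counts were 5, 4 and 6 of 6 in the 3 comparisons, beside 72%, 42.7% and 48.3% of all genes. Some of these passes were lost when 1 sample was left out. In CSF3R-first against CSF3R-only cells the edgeR adjusted p reached 0.118 for Ass1 and 0.0571 for Odc1. In CEBPA-first against CSF3R-first cells it reached 0.0912 for Asl and 0.175 for Slc7a2. Tested against a log2 fold change of 1 (edgeR glmTreat), 2, 0 and 1 of 6 were called, beside 15.9%, 1.28% and 5.09%. In CSF3R-first against CSF3R-only cells DESeq2 called 1 of 6 (6.43% of all genes), and 6 of 6 had an unadjusted edgeR p under 0.05 (50.5%). The 3 comparisons share samples and are not independent of each other.

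**Figure D1:**
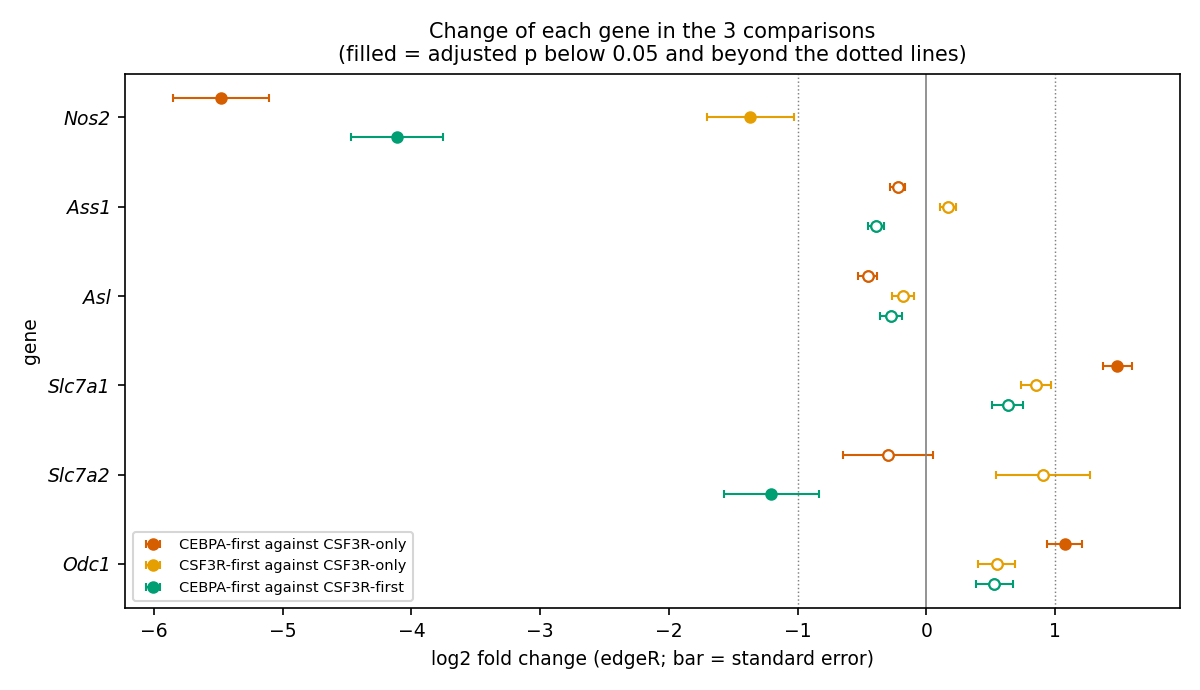
Log2 fold change of each gene (horizontal axis, edgeR, bars are standard errors) in the 3 comparisons, with filled points for genes past both limits and dotted lines at the fold limit. Nos2 lies farthest from 0 in both CEBPA-first comparisons, Ass1 and Asl stay within the dotted lines, and Slc7a1 and Odc1 lie to the right in all 3.

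Nos2 (ENSMUSG00000020826, chr11:78920787-78960254, + strand, GRCm38) encodes the inducible nitric oxide synthase. In CSF3R-only replicates A to D it was at 461, 418, 396 and 425 CPM, in CSF3R-first replicates A to C at 227, 96.9 and 169.9 CPM, and in CEBPA-first replicates A to D at 10.7, 9.46, 14.6 and 3.77 CPM. The 3 groups formed 3 separate ranges, and the lowest CSF3R-first sample was still above every CEBPA-first sample. The relative spread was unequal, with a coefficient of variation of 6.30% for CSF3R-only cells, 39.6% for CSF3R-first cells and 46.5% for CEBPA-first cells. Even the lowest sample held 295 counts, so the low level in CEBPA-first cells was a counted signal and not an absence of reads. The group means stood 44.2-fold apart between CSF3R-only and CEBPA-first cells, 2.58-fold apart between CSF3R-only and CSF3R-first cells and 17.1-fold apart between CSF3R-first and CEBPA-first cells. The corresponding edgeR adjusted p-values were 5.19e-08, 0.00632 and 3.01e-06, and the largest over the other tools, scalings, filters, fits and left-out samples was 1.19e-06, 0.0298 and 0.000198. Tested against a log2 fold change of 1 (edgeR glmTreat), the call in CSF3R-first against CSF3R-only cells was lost (unadjusted p = 0.0481, adjusted p = 1), and the other calls were kept (adjusted p = 2.16e-07 and 2.46e-05).

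**Figure D2:**
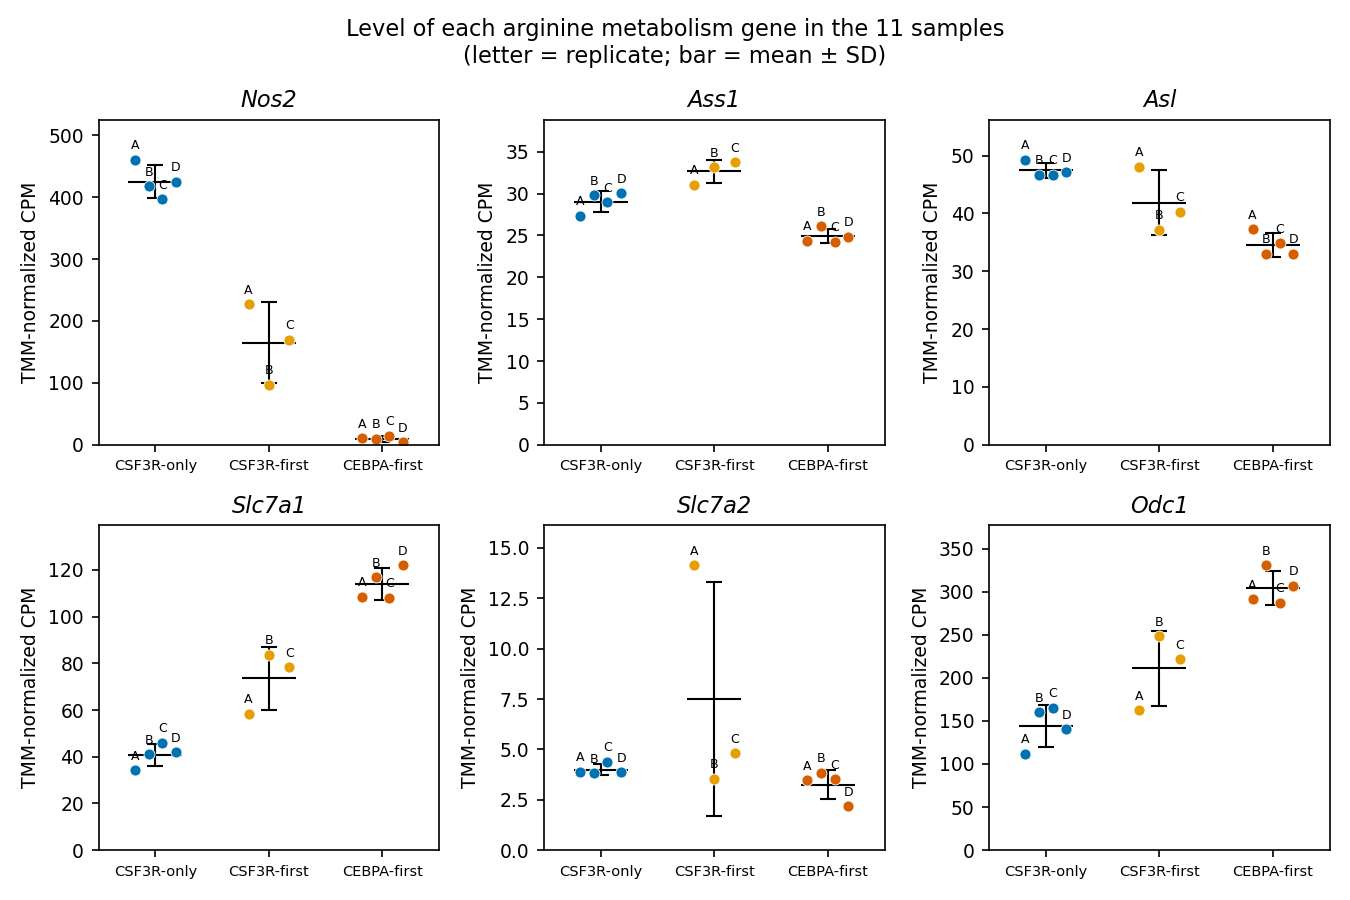
Level of each gene in the 11 samples, in TMM-normalized CPM on a linear axis from 0, with the replicate letter at each point and the group mean ± SD as a black bar. The Nos2 groups are separate, whereas CSF3R-first replicate A stands above replicates B and C for Slc7a2 (14.2 against 3.54 and 4.80 CPM).

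The genes that rebuild arginine from citrulline moved little. Ass1 (ENSMUSG00000076441, chr2:31470207-31520672, + strand), argininosuccinate synthase, was at 27.4, 29.8, 29.0 and 30.0 CPM in CSF3R-only, 31.1, 33.1 and 33.8 CPM in CSF3R-first and 24.4, 26.1, 24.3 and 24.8 CPM in CEBPA-first replicates. CSF3R-first cells were the highest of the 3 groups, unlike for any other gene here except Slc7a2, and no groups overlapped. The log2 fold changes were small, at -0.22 (SE 0.06) for CEBPA-first against CSF3R-only, 0.17 (SE 0.06) for CSF3R-first against CSF3R-only and -0.39 (SE 0.06) for CEBPA-first against CSF3R-first cells, with edgeR adjusted p-values of 0.00358, 0.0432 and 0.000322 and no call by the fold limit. Scaled by total counts alone, the first of these was -0.09 at an edgeR adjusted p of 0.248, and with no filter on low counts -0.15 at 0.138. The second passed the adjusted p only in part of the alternatives, over which it ranged from 0.0137 to 0.118: it missed it with no filter on low counts (0.0644), with only the 2 compared groups in the fit (0.0709), and without CSF3R-only replicate A (0.108), C (0.0831) or D (0.0589), CSF3R-first replicate B (0.118) or C (0.105), or CEBPA-first replicate A (0.0602), C (0.0561) or D (0.0512), all by edgeR. Of the Ass1 transcript, 73.1% is near-identical to Gm5424, which held at most 2.06% of the Ass1 counts in any sample. How reads that match both genes were counted is not given.

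Asl (ENSMUSG00000025533, chr5:130011258-130029247, − strand), argininosuccinate lyase, was at 49.3, 46.7, 46.7 and 47.1 CPM in CSF3R-only, 48.1, 37.2 and 40.3 CPM in CSF3R-first and 37.3, 33.0, 34.9 and 33.0 CPM in CEBPA-first replicates. CSF3R-only and CEBPA-first cells did not overlap, and the CSF3R-first samples reached into the CSF3R-only range and into the CEBPA-first range. In CEBPA-first against CSF3R-only cells the log2 fold change was -0.46 (SE 0.08, edgeR adjusted p = 0.000129), under the fold limit. The group mean was 1.37-fold lower, beside 44.2-fold for Nos2, an enzyme that forms citrulline. In CSF3R-first against CSF3R-only cells the log2 fold change was -0.18 (SE 0.08, edgeR adjusted p = 0.0959, and 0.00479 to 0.383 over the alternatives). In CEBPA-first against CSF3R-first cells it was -0.28 (SE 0.08, edgeR adjusted p = 0.0150, and up to 0.0912 with 1 sample left out).

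The 2 arginine transporters were followed one by one, and their ratio is tested further below. Slc7a1 (ENSMUSG00000041313, chr5:148327410-148399904, − strand), the widely expressed transporter, was at 34.1, 41.0, 46.0 and 41.9 CPM in CSF3R-only, 58.4, 83.8 and 78.4 CPM in CSF3R-first and 108.6, 116.9, 108.0 and 122.1 CPM in CEBPA-first replicates. The 3 ranges were separate and stood in the reverse order to Nos2. Slc7a1 rose in CEBPA-first against CSF3R-only cells (log2 fold change 1.48, SE 0.11, edgeR adjusted p = 1.36e-07). The other comparisons passed the adjusted p but not the fold limit, at 0.85 (SE 0.12, edgeR adjusted p = 0.000216) for CSF3R-first against CSF3R-only and 0.63 (SE 0.12, edgeR adjusted p = 0.00112) for CEBPA-first against CSF3R-first cells.

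Slc7a2 (ENSMUSG00000031596, chr8:40862396-40922308, + strand), a transporter known to be induced together with Nos2 in activated macrophages, was low throughout. It was at 3.89, 3.81, 4.39 and 3.88 CPM in CSF3R-only, 14.2, 3.54 and 4.80 CPM in CSF3R-first and 3.48, 3.85, 3.51 and 2.18 CPM in CEBPA-first replicates. CSF3R-first replicate A was the one sample above 5 CPM. The call in CEBPA-first against CSF3R-first cells (log2 fold change -1.20, SE 0.37, edgeR adjusted p = 0.0163) was not stable: without replicate A the value was -0.36 at an adjusted p of 0.175, with the replicate letter as a block it was -0.96 (edgeR adjusted p = 0.0351), under the fold limit, against a log2 fold change of 1 (glmTreat) the adjusted p was 1, and the exact permutation test of all samples gave p = 0.0571. In CSF3R-first against CSF3R-only cells the log2 fold change was 0.91 (SE 0.36, edgeR adjusted p = 0.0619) and 0.07 without replicate A, but without CSF3R-first replicate B or C it was 1.24 or 1.16 and was called. In CEBPA-first against CSF3R-only cells it was -0.30 (SE 0.35, edgeR adjusted p = 0.457). In CSF3R-first replicate A, the 12 monocyte and macrophage genes summed to 23344 CPM, against 13222 and 14112 CPM in replicates B and C, and the 12 neutrophil maturation genes to 25631 CPM, against 14685 and 17682 CPM. The part of either in the Slc7a2 level was not tested. The counts do not separate the splice forms of Slc7a2.

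Odc1 (ENSMUSG00000011179, chr12:17544794-17551505, + strand) leads ornithine into polyamines, which dividing cells need. It was at 111.8, 160.3, 165.5 and 140.3 CPM in CSF3R-only, 162.7, 248.5 and 221.5 CPM in CSF3R-first and 291.3, 330.9, 287.2 and 306.9 CPM in CEBPA-first replicates. The CEBPA-first samples were above all others, and CSF3R-first replicate A lay inside the CSF3R-only range. Odc1 rose in CEBPA-first against CSF3R-only cells (log2 fold change 1.07, SE 0.14, edgeR adjusted p = 1.07e-05), a value close to the fold limit that was 0.97 without CSF3R-only replicate A and was not called against a log2 fold change of 1 (glmTreat adjusted p = 0.512). In CSF3R-first against CSF3R-only cells it was 0.55 (SE 0.14, edgeR adjusted p = 0.00913), and in CEBPA-first against CSF3R-first cells 0.53 (SE 0.15, edgeR adjusted p = 0.0102). With 1 sample left out the edgeR adjusted p of the former reached 0.0571, which misses the threshold. Of the Odc1 transcript, 49.8% is near-identical to Gm14928, which had no count, and Gm17709, which held at most 1.18% of the Odc1 counts. How reads that match several of these genes were counted is not given.

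The 2-sided exact permutation test of mean log2 CPM could go no lower than p = 0.0286 (0.0429 adjusted over the 24 tests run, of which 18 are given here). Nos2, Ass1 and Slc7a1 reached that value in all 3 comparisons, Odc1 in both with CEBPA-first cells, and Asl only in CEBPA-first against CSF3R-only cells. Slc7a2 reached it in none, with p = 0.0571 in both comparisons with CEBPA-first cells and 0.2 otherwise, by the same exact test.

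The levels were also compared between genes, as CPM per kilobase of exon. In CSF3R-only cells Nos2 was highest at 96.3 ± 6.07 (SD, n = 4), followed by Odc1 at 42.4 ± 7.15 CPM per kilobase. Ass1 (12.03 ± 0.501) and Asl (9.82 ± 0.263) formed a middle group, above Slc7a1 (3.53 ± 0.426) and Slc7a2 (0.437 ± 0.0297 CPM per kilobase). No neighbours in this order overlapped in their samples. Lengths were those of all exons of a gene joined. For Ass1, Asl and Slc7a1 these were 2414, 4831 and 11530 bases, beside longest transcripts of 1696, 2413 and 7179 bases. The order of these genes in any group may depend on that choice, which was not tested. Reads shared with near-identical genes may be missing from the Ass1 and Odc1 levels.

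In CEBPA-first cells the order was another one. Odc1 was highest at 89.3 ± 5.82 (SD, n = 4), followed by Ass1 (10.3 ± 0.346), Slc7a1 (9.88 ± 0.589) and Asl (7.16 ± 0.420 CPM per kilobase). Nos2 was at 2.18 ± 1.01 CPM per kilobase, and Slc7a2 was last at 0.357 ± 0.0805. Ass1 and Slc7a1 overlapped in their samples. CSF3R-first cells had Odc1 first at 61.9 ± 12.9 and then Nos2 at 37.3 ± 14.8 CPM per kilobase (SD, n = 3), with overlapping samples. They were followed by Ass1 (13.5 ± 0.587), Asl (8.66 ± 1.16), Slc7a1 (6.38 ± 1.16) and Slc7a2 (0.821 ± 0.634 CPM per kilobase), which did not overlap.

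**Figure D3:**
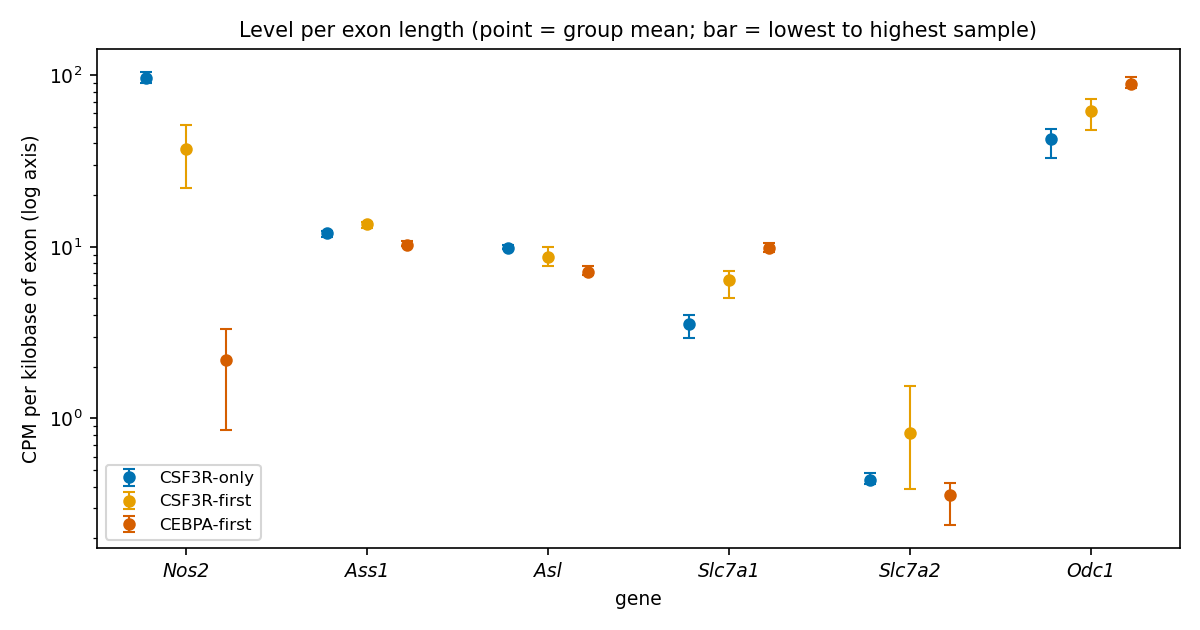
Level per exon length of each gene by group, in CPM per kilobase on a log axis, with the group mean as a point and the lowest to the highest sample as a bar. Nos2 is the highest gene in CSF3R-only cells (96.3 CPM per kilobase) and Odc1 in CEBPA-first cells (89.3 CPM per kilobase).

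The ratio of the 2 transporters within a sample was compared on the log2 scale of CPM. The log2 ratio of Slc7a2 to Slc7a1 had group means of -3.33 ± 0.14 in CSF3R-only (SD, n = 4), -3.54 ± 1.32 in CSF3R-first (n = 3) and -5.14 ± 0.43 in CEBPA-first cells (n = 4). It was lower in all CEBPA-first samples than in any other, by a difference of -1.81 against CSF3R-only and -1.61 against CSF3R-first cells. Each had a 2-sided exact permutation p of 0.0286, the smallest these group sizes allow (0.0643 adjusted over the 9 tests of ratios run, of which 3 are given here, which misses the threshold). Without CSF3R-first replicate A the latter difference was -0.86 (exact p = 0.0667, the smallest then possible). In CSF3R-first against CSF3R-only cells the difference (-0.20, exact p = 0.743) was within the spread, and its sign depended on which sample was left out.

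The place of CSF3R-first cells between the other groups was set on a scale of mean log2 CPM, running from 0 (the CSF3R-only mean) to 1 (the CEBPA-first mean), for the 3 genes changed between those groups. CSF3R-first replicates A, B and C stood at 0.161, 0.379 and 0.235 for Nos2. For the genes that rose they stood at 0.354, 0.704 and 0.639 for Slc7a1 and at 0.173, 0.734 and 0.582 for Odc1. Replicate A was nearest to CSF3R-only and replicate B farthest from it for all 3 genes. The mean position was 0.258 ± 0.111 for Nos2, 0.496 ± 0.29 for Odc1 and 0.566 ± 0.186 for Slc7a1 (SD, n = 3), and the difference between genes was not tested.

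Other genes of arginine, nitric oxide and polyamine metabolism were counted from a list of 51, of which 41 were tested. In CEBPA-first against CSF3R-only cells 15 of 41 were changed, 9 higher and 6 lower, with a median log2 fold change of 0.43 beside -0.00446 over all tested genes. In CSF3R-first against CSF3R-only cells 4 were changed, 1 higher and 3 lower, and in CEBPA-first against CSF3R-first cells 6, 2 higher and 4 lower. These read against the backgrounds of 27%, 6.65% and 12.8% given above. Leaving out 1 sample at a time gave 14 to 16, 2 to 4 and 6 to 7, with 2 in the second comparison reached without CSF3R-first replicate B. The 10 genes that were not tested include Otc and Agxt2, with no count in any sample, and Cps1, with 2 counts in all; a count of 0 allows at most 0.0415 to 0.0626 CPM in these libraries, by counting error only. Otc and Cps1 belong to the liver urea cycle.

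Around the synthase, 7 genes were tested, of which Gchfr alone was changed in CEBPA-first against CSF3R-only cells, and fell (background 27%, of which 19% lower). Gchfr, the feedback regulator of the enzyme that starts synthesis of the Nos2 cofactor tetrahydrobiopterin, was at 6.00 ± 0.659, 2.60 ± 0.471 and 0.910 ± 0.283 CPM, in the group order of the plots (CSF3R-only first, CEBPA-first last; SD with n = 4, 3 and 4, here and below). Its log2 fold change was -2.72 (SE 0.20, edgeR adjusted p = 1.00e-07) in CEBPA-first against CSF3R-only and -1.20 (SE 0.20, edgeR adjusted p = 0.000668) in CSF3R-first against CSF3R-only cells. Gch1, the enzyme itself, was at 25.2 ± 1.31, 13.3 ± 3.66 and 13.6 ± 0.899 CPM, with a log2 fold change of 0.03 (SE 0.14, edgeR adjusted p = 0.868) between the last 2. Both were below CSF3R-only cells, at -0.92 and -0.89, under the fold limit, and without CSF3R-first replicate A the former was -1.15 and was called.

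The 7 tested genes of ornithine, proline and glutamate were all higher in CEBPA-first against CSF3R-only cells by adjusted p, and 3 of them, Aldh18a1, Pycr1 and Pycr3, passed the fold limit too, where 72% of all tested genes passed the adjusted p in either direction and 27% passed both. Aldh18a1, which makes the precursor shared by proline and ornithine, was at 108.1 ± 12.4, 147.0 ± 24.5 and 221.6 ± 14.5 CPM (log2 fold change 1.03, SE 0.11, edgeR adjusted p = 1.86e-06); it was under the fold limit without CSF3R-only replicate A (0.95), without CEBPA-first replicate B (0.99), and when only genes with 10 counts in every sample were kept (0.997). Pycr1, the proline-forming reductase, was at 3.93 ± 0.651, 4.81 ± 0.660 and 9.73 ± 0.468 CPM (1.31, SE 0.13, edgeR adjusted p = 1.02e-06). None of the 7 was called in CSF3R-first against CSF3R-only cells, by edgeR or DESeq2, and 5 were higher by adjusted p, the same number as by unadjusted p (6.65% of all genes called, 42.7% by adjusted and 50.5% by unadjusted p). These 3 genes, and Gch1, Slc25a13, Lyz2, Chil3, Myb, Flt3, Hlf and Cd34 in other lists, were named after their values were seen.

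Of the 4 tested genes of the urea cycle and mitochondrial carriers, Nags fell and Slc25a13 rose in CEBPA-first against CSF3R-only cells (background 27%, of which 19% lower and 8.07% higher). Nags, which makes the activator of the urea cycle, was very low at 0.408 ± 0.0864, 0.282 ± 0.184 and 0.0779 ± 0.0334 CPM (log2 fold change -2.33, SE 0.47, edgeR adjusted p = 0.000617). Its call in CEBPA-first against CSF3R-first cells (-1.82, edgeR adjusted p = 0.0111) was lost without CSF3R-first replicate C (-1.33, adjusted p = 0.0834). Slc25a13, the aspartate and glutamate carrier that feeds Ass1, was at 28.6 ± 2.03, 45.6 ± 5.39 and 60.8 ± 3.39 CPM (1.09, SE 0.08, edgeR adjusted p = 1.03e-07).

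Of 4 further transport genes, Slc7a3, another cationic amino acid transporter, was at 0.640 ± 0.221, 0.746 ± 0.195 and 5.05 ± 0.589 CPM. It rose in CEBPA-first cells against both CSF3R-only (log2 fold change 2.99, SE 0.24, edgeR adjusted p = 2.17e-07) and CSF3R-first cells (2.74, SE 0.26, edgeR adjusted p = 6.19e-06), and its log2 fold change between the latter was 0.25 (SE 0.28, edgeR adjusted p = 0.499). It was the one of the 4 to pass both limits against CSF3R-only cells (background 27%). By adjusted p alone Slc7a6 was higher (0.93, SE 0.12, edgeR adjusted p = 1.13e-05), and past the fold limit under total-count scaling (1.06) and without the filter on low counts (1.004). Slc7a7 (-0.88, SE 0.16, edgeR adjusted p = 0.000277) and Slc3a2 (-0.38, SE 0.06, edgeR adjusted p = 5.11e-05) were lower. These last 3 were named after their values were seen.

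Of 12 tested polyamine genes, 6 were changed in CEBPA-first against CSF3R-only cells, 3 in each direction (background 27%, of which 8.07% higher and 19% lower). The 3 that rose act in synthesis and salvage: Srm, spermidine synthase, was at 142.5 ± 22.9, 240.3 ± 45.9 and 388.1 ± 32.7 CPM (log2 fold change 1.45, SE 0.13, edgeR adjusted p = 6.77e-07), and Sms, spermine synthase (1.05), and Mtap, which recycles the by-product of both (1.33), were higher too, Sms under the fold limit without CSF3R-only replicate A (0.97). The 3 that fell were Smox, Sat1 and Azin2. Smox, the spermine oxidase, was at 117.3 ± 3.83, 55.9 ± 13.9 and 19.7 ± 3.70 CPM (-2.58, SE 0.15, edgeR adjusted p = 1.64e-08). Sat1, the acetylase that starts polyamine breakdown and export, was at 441.1 ± 46.6, 290.1 ± 72.9 and 178.6 ± 25.3 CPM (-1.30, SE 0.14, edgeR adjusted p = 2.93e-06). By adjusted p alone 5 of the 12 were higher and 4 lower, beside 72% of all genes in either direction. Among the higher was Paox, a polyamine oxidase (0.35, SE 0.10, edgeR adjusted p = 0.00543), so breakdown genes did not all fall.

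Azin2, an inhibitor of antizyme, which in turn blocks Odc1, was at 6.36 ± 0.5996, 3.17 ± 1.03 and 0.747 ± 0.0968 CPM (log2 fold change -3.09, SE 0.19, edgeR adjusted p = 2.44e-08). The homologue Azin1 (0.04, SE 0.06) and the antizyme Oaz1 (-0.02, SE 0.07), both far more abundant, did not pass the test. Oaz2, the other antizyme tested, was lower by adjusted p, at 73.6 ± 4.82, 51.7 ± 8.34 and 38.4 ± 2.10 CPM (-0.94, SE 0.09, edgeR adjusted p = 9.03e-07), just under the fold limit. Between CSF3R-first and CSF3R-only cells Smox (-1.07) and Azin2 (-1.004) were also called, both close to the limit: without CSF3R-first replicate B they were -0.89 and -0.83, and under total-count scaling -0.99 and -0.93. Azin2 was also under the limit without CSF3R-first replicate C (-0.91), without CSF3R-only replicate C (-0.94), without the filter on low counts (-0.96) and with only the 2 groups in the fit (-0.99). Srm, Sms, Mtap, Sat1, Paox, Azin1, Oaz1 and Oaz2 were named after their values were seen.

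None of the 4 genes of hypusine, the spermidine-derived residue of the translation factor Eif5a, passed the fold limit in CEBPA-first against CSF3R-only cells, by edgeR or DESeq2, and all 4 passed the unadjusted and the adjusted p, 3 higher and 1 lower, where 72% of all genes passed the adjusted p and 27% both limits. Of the 3 creatine genes, Gatm, which joins arginine to glycine, was at 127.4 ± 11.3, 262.4 ± 18.2 and 380.8 ± 23.6 CPM, and rose in CEBPA-first (log2 fold change 1.58, SE 0.08, edgeR adjusted p = 3.47e-09) and in CSF3R-first against CSF3R-only cells (1.04, SE 0.08, edgeR adjusted p = 2.74e-06), the latter under the limit without CSF3R-first replicate A (0.99) or CSF3R-only replicate A (0.98). Slc6a8, the creatine transporter, named after its values were seen, fell in CEBPA-first against CSF3R-only cells from 1.69 ± 0.178 to 0.605 ± 0.198 CPM (-1.50, SE 0.29, edgeR adjusted p = 0.000387).

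**Figure D4:**
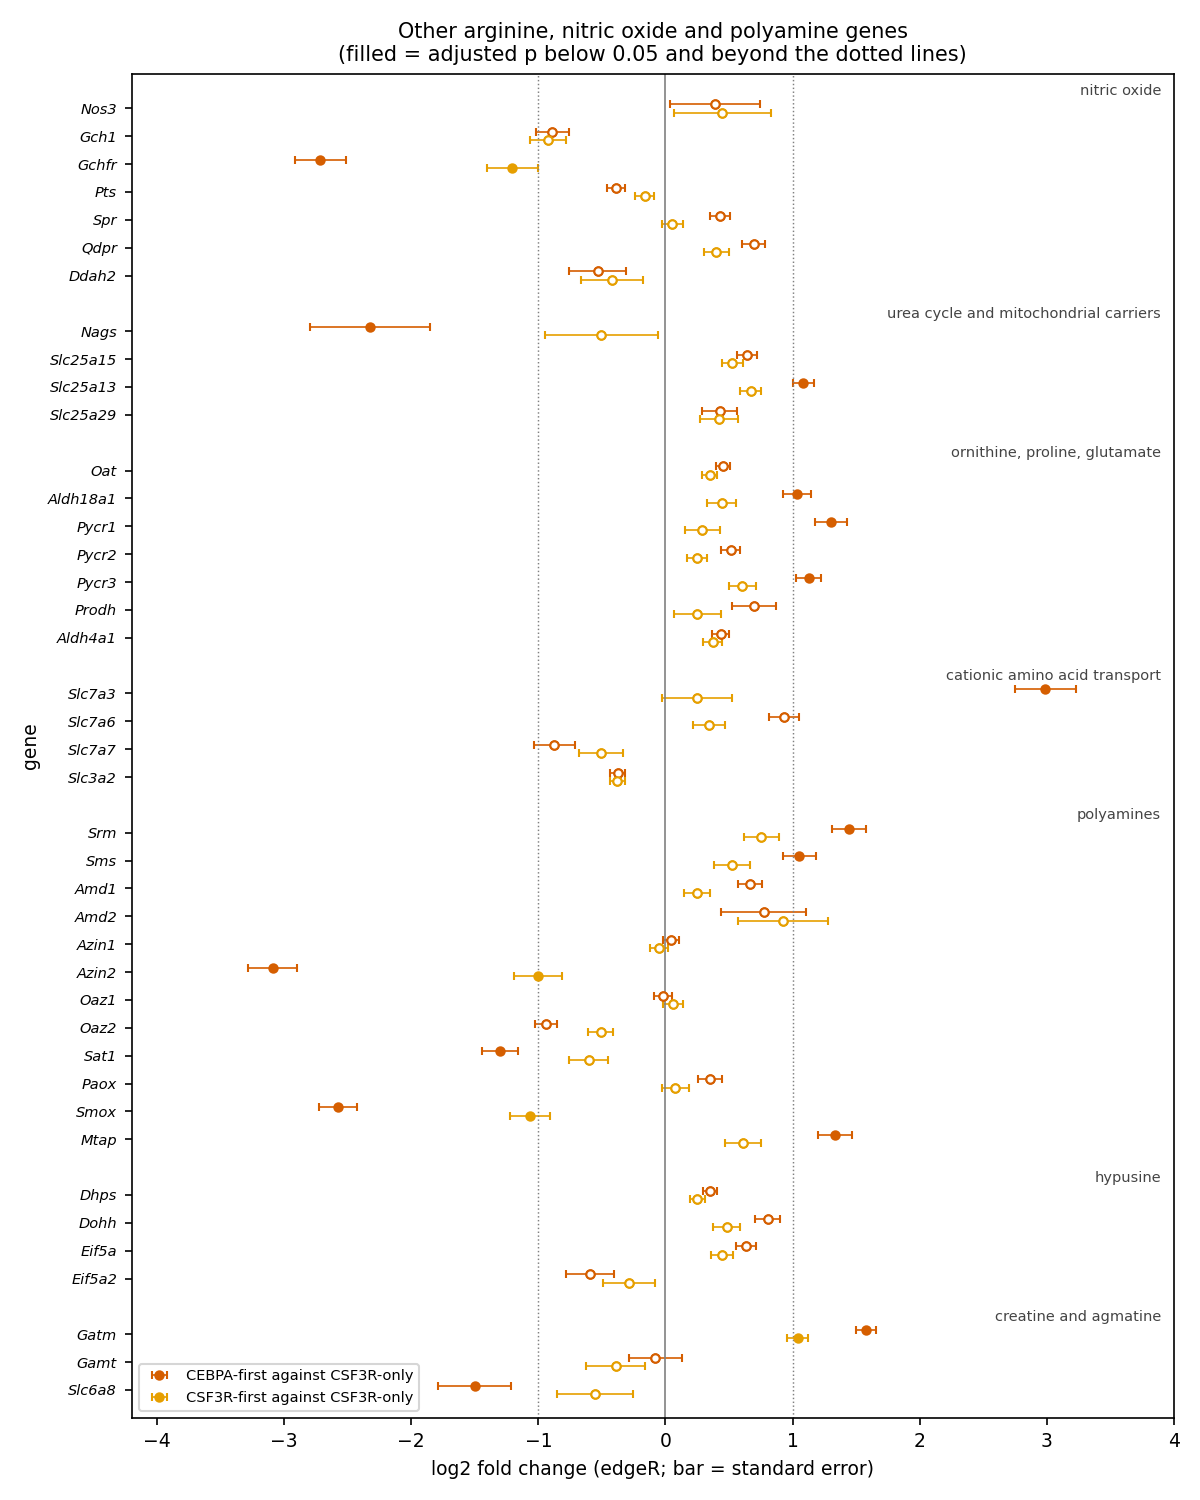
Log2 fold change (edgeR, bars are standard errors) of the 41 tested genes of the wider list, by role, in CEBPA-first and CSF3R-first against CSF3R-only cells, with filled points for genes past both limits. Polyamine genes lie on both sides, with Srm at 1.45 and Azin2 at -3.09 in CEBPA-first cells, and the 7 ornithine, proline and glutamate genes all lie to the right of 0.

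Of 17 transcription factors, receptors and signalling genes known to act on Nos2, Odc1 or other genes of arginine use, all were tested, and 6 (2 higher, 4 lower) were changed in CEBPA-first against CSF3R-only cells, beside the background of 27%. Cebpb, a factor of Nos2 induction, fell from 677.0 ± 114.8 in CSF3R-only to 209.5 ± 21.5 CPM in CEBPA-first cells (log2 fold change -1.69, SE 0.16, edgeR adjusted p = 6.90e-07), with CSF3R-first cells at 458.8 ± 124.6 CPM; its call against CSF3R-first cells (-1.13) was under the limit without CSF3R-first replicate A (-0.88). The 2 chains of the interferon-gamma receptor, Ifngr1 (-1.17) and Ifngr2 (-1.09), and Stat6 (-1.01), which relays interleukin-4, fell as well, but under total-count scaling Ifngr2 was at -0.96 and Stat6 at -0.88, and Stat6 was under the limit without CEBPA-first replicate D (-0.93), CSF3R-only replicate A (-0.97) or CSF3R-first replicate C (-0.9985) and without the filter on low counts (-0.94). Myc, an activator of Odc1, rose from 157.7 ± 27.7 through 282.7 ± 45.1 to 464.8 ± 16.3 CPM (1.56, SE 0.13, edgeR adjusted p = 2.25e-07), and Pparg, a nuclear receptor of lipid-handling macrophages, from 2.14 ± 0.250 in CSF3R-only to 4.87 ± 0.300 CPM in CEBPA-first cells (1.19, SE 0.15, edgeR adjusted p = 8.93e-06).

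None of the 17 was called by edgeR or DESeq2 in CSF3R-first against CSF3R-only cells, although 12 passed both the unadjusted and the adjusted p (50.5% and 42.7% of all genes), 11 lower and 1, Myc (0.84), higher. In CEBPA-first against CSF3R-first cells Pparg was higher past both limits (1.73, SE 0.17, edgeR adjusted p = 7.24e-06) and Myc by adjusted p alone (0.72, SE 0.13, edgeR adjusted p = 0.00104). The mouse genes of the transgenes, Csf3r and Cebpa, differed by -2.46 and 0.93 on the log2 scale between CEBPA-first and CSF3R-only cells; human transgene reads may or may not have been counted on them, and they do not check the labels.

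Genes whose profile over the 11 samples was most like each of the 6 were ranked by the root-mean-square distance between centred log2 CPM profiles, among 9040 genes. For Nos2 they were 2010005H15Rik (distance 0.32 log2 units), Fam110c (0.36), Ppbp (0.43), Col5a1 (0.43) and BC100530 (0.43). Ppbp, a platelet chemokine, was at 304.0 ± 48.4, 82.7 ± 22.2 and 9.06 ± 5.28 CPM in the same group order. No other gene of the 6 came near, the closest being Slc7a2 at 2.30 log2 units from Nos2.

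For Slc7a1 they were Cdk6 (0.06), a kinase of cell cycle entry, Pcgf6 (0.07) and Top1mt (0.07), and for Odc1 Thop1 (0.05), Got1 (0.05) and Prps1 (0.05), which makes the nucleotide precursor PRPP. Slc7a1 and Odc1 were 0.19 from each other, the closest pair among the 3 changed genes. For Slc7a2 the list held Hopx (0.36), Slpi (0.40) and Mmp12 (0.41), the macrophage elastase, which spread widely in CSF3R-first cells (56.5 ± 59.6 CPM). Ass1 was nearest to Lyrm2, D17Wsu92e and Apip (0.08 to 0.09), and Asl to Zdhhc7, Tirap and Stard3 (0.03 to 0.04). These distances describe the 11 samples, which share groups and libraries, and genes that vary little are near many others.

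The marker lists moved with the same groups. In CEBPA-first against CSF3R-only cells 11 of 12 neutrophil maturation genes fell (background lower, 19%), among them Ltf (log2 fold change -5.65) and Mmp9 (-5.59), and 8 of 12 fell in CSF3R-first against CSF3R-only cells (background lower, 4.53%). Of the 12 monocyte and macrophage genes 10 fell in the former (background lower, 19%), among them Marco (-4.96) and Msr1 (-2.94), and Chil3 rose. The summed level of the stem and progenitor list (6 genes) was 360 to 521 CPM in CSF3R-only, 315 to 461 CPM in CSF3R-first and 529 to 613 CPM in CEBPA-first cells, and its members went opposite ways: in CEBPA-first against CSF3R-only cells Myb (1.62), Flt3 (1.495) and Hlf (2.26) rose and Cd34 (-2.31) fell. The dendritic list summed to 44.6 to 60.9, 25.3 to 41.5 and 10.9 to 15.4 CPM, the eosinophil list to 243 to 364, 59.5 to 138 and 29.4 to 37.4 CPM, the megakaryocyte list to 576 to 782, 225 to 394 and 101 to 148 CPM, the mast cell and basophil list to 1174 to 1896, 699 to 912 and 742 to 1043 CPM, the erythroid list to 149.9 to 234.8, 69.7 to 224.5 and 24.1 to 36.4 CPM, and the stroma and endothelium list to 0.645 to 1.30, 0.690 to 0.869 and 0.192 to 0.557 CPM. Nos2 stood highest in CSF3R-only cells. Their neutrophil, dendritic, eosinophil, megakaryocyte, and mast cell and basophil sums also lay above those of all other samples. The sums of all 12 monocyte and macrophage genes overlapped between CSF3R-only and CSF3R-first cells, as did the erythroid sums. The part of cell makeup in the Nos2 level was not tested.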

How the data were processed

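Raw counts of 11 RNA-seq samples in 3 groups were analysed. Whole-number counts were deposited by the authors after read trimming and alignment, one value per Ensembl gene and sample, not normalized; the submitters' processing notes name STAR, DESeq2 and the build mm10. The counting tool, annotation release and strand setting are not given in the sources used here. The libraries were made with a low-input kit. Gene positions and exon lengths come from GENCODE M21 (GRCm38, the same build).

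Counts were filtered with filterByExpr, scaled by TMM and tested with edgeR 4.0.16 (R 4.3.3) in a single group-only model of the 11 samples, with Benjamini-Hochberg adjustment over all 15703 genes tested. A standard error is the log2 fold change over the square root of the F statistic. Log2 CPM used a prior count of 2. Exact permutation tests were two-sided. Near-identical stretches (at least 100 bases at 97% identity) were searched with BLAST 2.17.0. No 2 replicates of a group agreed within sampling noise (chi-square per gene 9.5 to 104). On simulated counts for CEBPA-first against CSF3R-only cells (15703 genes, 200 changed by a log2 fold of 2), edgeR recovered 200 with 1 false call and DESeq2 1.42.0 recovered 200 with 4.

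The member genes and all lists (51 wider pathway genes, 17 factors, 68 markers) were chosen with earlier results of these data known. Named genes were all 6 members, up to 6 changed genes of the wider list and of the factors and up to 2 of a marker list with the largest fold change, and the 5 (Nos2) or 3 genes of nearest profile whose average log2 CPM was 3 or more; others are marked in the text. Some genes of these lists are not reported here; exact p-values were adjusted with their tests included. Alternatives were DESeq2, other scalings and filters, a fit of the compared groups only, a replicate block, other call rules and each sample left out.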

Additional observations from a re-analysis of the deposited data

Results flagged for a closer look

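In groups of 4 samples, a sample stood apart from the other 3 by Dixon's 95% critical value in 2 cases. Asl in CSF3R-only replicate A was at 49.33 CPM, above 46.7 to 47.1 CPM in the other replicates, a gap of a few percent of the level. Slc7a2 in CSF3R-only replicate C was at 4.394 CPM, above 3.81 to 3.89 CPM in the others. Of the 12 groups tested, 0.6 would stand apart by chance. CSF3R-first cells, with 3 samples, were not tested in this way, although the widest gap in Slc7a2 was seen there.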

How the results depend on the processing

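No alternative turned the direction of a log2 fold change of the 6 genes. DESeq2, the other scalings, the other count filters and a fit of 2 groups changed no call among them. Total-count scaling moved the median log2 fold change of all genes in CEBPA-first against CSF3R-only cells from -0.00446 to 0.129, and the share of higher among called genes from 29.9% to 40.2% there and from 32% to 40.3% in CSF3R-first against CSF3R-only cells.

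With a test against a log2 fold change of 1 (glmTreat), 2 of the 6 genes were called in CEBPA-first against CSF3R-only cells (3 by the usual rule, 5 by adjusted p alone), 0 in CSF3R-first against CSF3R-only cells (1 and 4) and 1, Nos2, in CEBPA-first against CSF3R-first cells (2 and 6), while 10, 0 and 3 of the wider list were called in the 3 comparisons (36, 25 and 24 by adjusted p alone). Where glmTreat called 0, 6 of the 6 and 27 of the 41 genes had an unadjusted edgeR p under 0.05 against no change (50.5% of all genes), and DESeq2 called 1 and 4 (6.43%). Of all genes glmTreat called 15.9%, 1.28% and 5.09%. These rules differ by construction. Leaving out 1 sample gave 2 to 3, 1 to 2 and 1 to 2 of the 6 genes: Odc1 was lost without CSF3R-only replicate A, Slc7a2 was called in CSF3R-first against CSF3R-only cells without CSF3R-first replicate B or C, and it was lost in CEBPA-first against CSF3R-first cells without CSF3R-first replicate A. Over the same settings the difference of the Slc7a2 to Slc7a1 ratio in CSF3R-first against CSF3R-only cells, which turned sign, ranged from -0.95 to 0.30; the cause was not tested.

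Replicate letters do not pair the samples by the labels: same-letter deviations correlated from -0.11 to 0.36, 7 of 10 above 0.1 beside 5 of 30 for different letters (-0.34 to 0.38), and 6 of 11 samples correlated best with their own letter. With the letter as a replicate block, the counts of called genes among the 6 were 3, 1 and 1, and Slc7a2 in CEBPA-first against CSF3R-first cells went to -0.96 (edgeR adjusted p = 0.0351), under the fold limit. Counting error alone gives a coefficient of variation of 6.98% for Slc7a2 in CSF3R-only cells, as large as the 6.79% observed, and in the same way 2.58% of 3.35% for Ass1 in CEBPA-first cells and 2.02% of 2.67% for Asl in CSF3R-only cells. For Nos2, Slc7a1 and Odc1 the observed value was at least 4.93 times the counting error in every group.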
